A study of Mus musculus with 9 samples.

Results

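Kruppel-like factors (Klf) are DNA-binding proteins with zinc fingers at the end of the chain, and they sit on GC-rich and CACCC stretches of promoters as activators or repressors of transcription. The 10 members described here, Klf2, Klf3, Klf4, Klf5, Klf6, Klf9, Klf10, Klf11, Klf13 and Klf15, were taken as a fixed list of gene symbols out of 55487 genes in the count table. All 10 passed the filter on low counts, which 14851 genes passed in all. Expression was measured by RNA-seq of polyadenylated RNA from gastrocnemius, a calf muscle, of wild-type mice labelled as male C57BL/6, the substrain C57BL/6J in the study's text. Control mice (4 libraries) were housed normally, Unloading mice (2 libraries) were sampled after 10 days in which the hindlimbs bore no weight, and Reloading mice (3 libraries) were sampled after 1 day back on their feet following the same unloading. The labels name no transgene, deletion or drug, and give no age. The sources do not tie each library to its own animal, so p-values measure the spread between these libraries. Each library held 9252443 to 19612101 read pairs in genes, and expression is given as CPM, counts scaled to a common library size with TMM factors, or as RPKM, the same per kilobase of exon, where genes are compared with each other.

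In skeletal muscle the family spans several cell types. Klf2 and Klf4 are known from endothelium, where flow over the vessel wall induces them through the kinase ERK5 and MEF2 factors. Klf5 is known from vascular smooth muscle and epithelia, and Klf6 as an early gene of injured tissue. Klf9 and Klf15 are induced by glucocorticoids, Klf15 promotes the use of branched-chain amino acids and lipids in muscle, and both follow the circadian clock in several tissues. Klf10 and Klf11 are early targets of TGF-beta, and Klf3 and Klf13 are best known as repressors.

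Skeletal muscle as the tissue was borne out by 8 muscle fibre markers, such as Ckm and Myh4, which summed to at least 103203 CPM in every library. These markers do not show which muscle was taken. Skin markers stood apart in 2 libraries: the 10 keratinocyte genes summed to 279 CPM in Control 2 and 131 CPM in Reloading 1, against 5.50 to 8.68 CPM in the other 7. The 4 T cell markers summed to at most 1.24 CPM, and no marker of any list was at 0 in all 9 libraries.

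The promoters of the 5 members with the largest changes are shown because letters that factors of this family are known to recognise occur in each of them. Each is the RefSeq window on GRCm38.p6 from 250 bases before to 50 bases after the transcription start, read 5′ to 3′ on the strand of the gene. Capitals mark CACCC and GGGCGG on either strand. The windows are chr8:72318812-72319111 (plus strand) for Klf2, chr4:55532426-55532725 (minus) for Klf4, chr13:5861239-5861538 (plus) for Klf6, chr19:23140976-23141275 (plus) for Klf9 and chr6:90462326-90462625 (plus) for Klf15.
Klf2: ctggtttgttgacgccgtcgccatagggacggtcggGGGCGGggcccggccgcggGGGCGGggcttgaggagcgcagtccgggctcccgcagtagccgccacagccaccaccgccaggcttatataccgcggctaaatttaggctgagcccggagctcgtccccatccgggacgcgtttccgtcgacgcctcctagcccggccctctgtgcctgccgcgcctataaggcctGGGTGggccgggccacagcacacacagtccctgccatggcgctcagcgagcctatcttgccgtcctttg
Klf4: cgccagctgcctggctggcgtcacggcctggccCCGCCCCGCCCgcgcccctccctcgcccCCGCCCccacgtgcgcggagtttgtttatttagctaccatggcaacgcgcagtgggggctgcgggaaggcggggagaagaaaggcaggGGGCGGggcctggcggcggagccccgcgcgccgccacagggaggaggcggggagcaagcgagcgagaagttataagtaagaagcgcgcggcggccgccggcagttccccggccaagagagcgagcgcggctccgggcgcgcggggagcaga
Klf6: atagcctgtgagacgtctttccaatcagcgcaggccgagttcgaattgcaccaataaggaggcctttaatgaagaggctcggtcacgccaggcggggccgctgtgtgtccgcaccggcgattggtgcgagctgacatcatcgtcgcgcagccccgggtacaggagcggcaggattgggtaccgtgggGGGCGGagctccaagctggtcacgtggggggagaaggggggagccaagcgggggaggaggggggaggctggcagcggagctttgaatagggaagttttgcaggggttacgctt
Klf9: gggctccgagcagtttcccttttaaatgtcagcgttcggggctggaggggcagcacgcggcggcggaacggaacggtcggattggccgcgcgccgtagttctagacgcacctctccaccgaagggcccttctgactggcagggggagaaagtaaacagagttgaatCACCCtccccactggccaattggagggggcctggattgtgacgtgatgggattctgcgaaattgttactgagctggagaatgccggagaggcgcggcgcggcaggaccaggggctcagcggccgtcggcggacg
Klf15: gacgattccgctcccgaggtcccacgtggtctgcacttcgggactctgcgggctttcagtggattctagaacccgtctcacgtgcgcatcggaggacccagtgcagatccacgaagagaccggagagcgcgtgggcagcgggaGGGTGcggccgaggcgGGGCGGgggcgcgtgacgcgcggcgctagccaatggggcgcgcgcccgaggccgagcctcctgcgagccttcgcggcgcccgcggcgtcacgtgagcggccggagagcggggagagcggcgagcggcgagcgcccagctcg

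A window was found for 8 of the 10 members, all but Klf5 and Klf10. The bases G and C made up 63% to 77.7% of these 8 windows, and the promoters set beside them were not matched for this content. GGGCGG, the GC box, lay in 7 of these 8 windows, against 35.7% of 32851 promoters of the same length, and Klf9 was the member without it. CACCC lay in 5 of the 8, against 57.5% of all promoters. TGACG, the core of a cAMP response element, lay in 6, against 20.8%, and CCAAT in 5, against 37.4%. AGAACA, the core of the element bound by the glucocorticoid receptor, was in none of the 8 and in 19.0% of all promoters. The MEF2 consensus was in 1 of the 8, that of Klf2, as ctaaatttag starting 118 bases before the transcription start, and in 3.19% of all promoters. The CArG box, the element of serum response factor, was in none of the 8 and in 1.63% of all promoters. Both strands were searched, matches of CACCC and GGGCGG may overlap, and a match of letters is a description only.

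The transition from unloading to reloading moved members in both directions (the dot plots of the 10 genes by library). By edgeR's quasi-likelihood test with Benjamini-Hochberg adjustment over all 14851 genes, 3 members were higher in Reloading than in Unloading (Klf2, Klf4 and Klf5), 2 were lower (Klf9 and Klf15) and 5 did not pass. Of all tested genes 18.5% were higher and 19% lower in this comparison, so 5 of 10 called members stand beside a background of 37.5%. The median log2 fold change of the 10 was 0.33, against 0.03 for all genes tested. Between Unloading and Control 1 member was higher (Klf6) and 0 were lower, also 0 at an unadjusted p of 0.05 and 0 by DESeq2, against 4.4% and 5.5% of all genes (9.9% together). Between Reloading and Control 4 were higher (Klf2, Klf4, Klf5 and Klf6) and 2 lower (Klf9 and Klf15), against 22.1% and 21.3% of all genes (43.5% together). The comparisons share libraries and are given side by side. In whole muscle, a change in the number of cells of a type and a change in the RNA of each cell cannot be told apart.

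**Figure D1:**
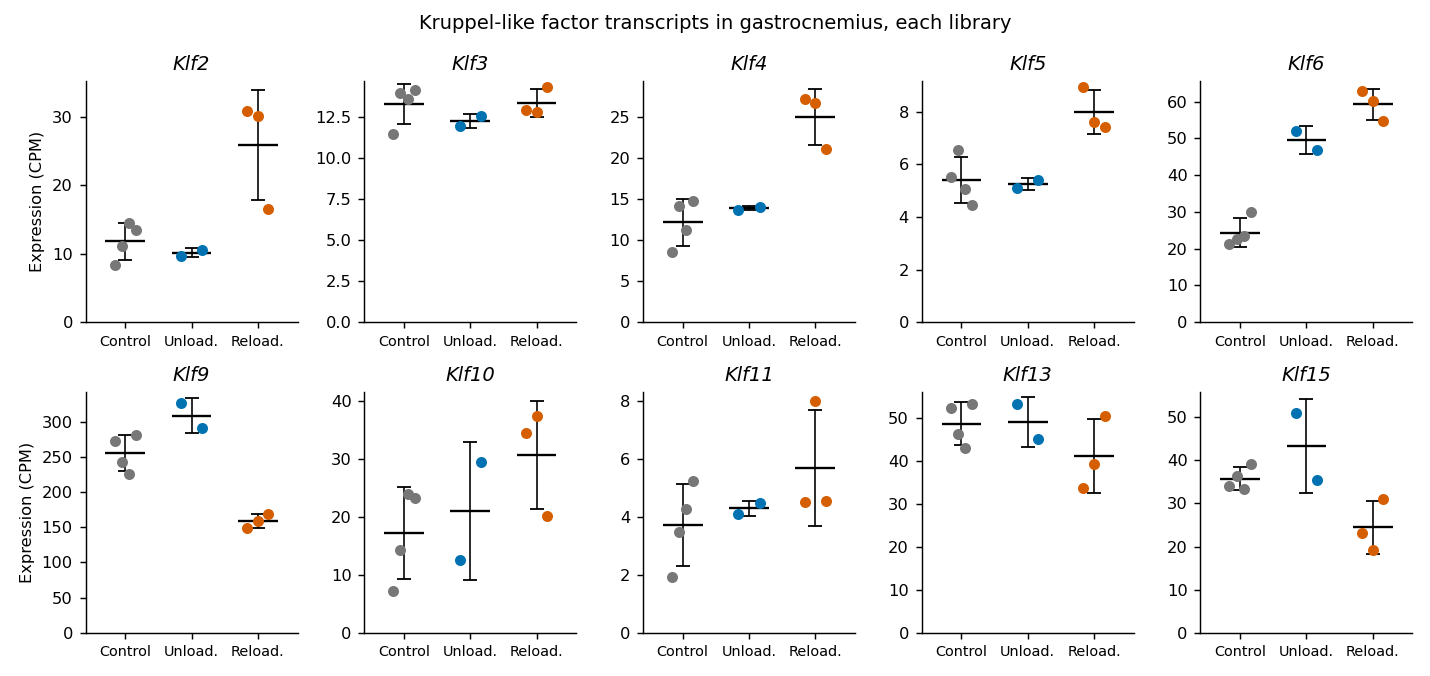
Expression of the 10 members in CPM (y axis of each panel, from 0) in the Control (grey, n = 4), Unloading (blue, n = 2) and Reloading (orange, n = 3) libraries. Points are libraries, long bars group means and whiskers SD. The 3 Reloading points lie above all others for Klf2, Klf4, Klf5 and Klf6 and below all others for Klf9 and Klf15.

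Klf2 (ENSMUSG00000055148, chromosome 8, 72319033 to 72321656, plus strand) showed the largest rise. Its expression was 8.35, 11.1, 14.4 and 13.5 CPM in Control, 9.73 and 10.6 CPM in Unloading, and 30.9, 30.2 and 16.6 CPM in Reloading. Every Reloading library was above every Control and Unloading library, and Reloading 3 lay below the other Reloading libraries. Klf2 rose 2.53-fold from Unloading to Reloading (log2 fold change 1.34 ± 0.24 SE, adjusted p = 0.000559) and was 2.15-fold higher than Control (1.10 ± 0.20, adjusted p = 0.000346). Unloading and Control overlapped, with a log2 difference of −0.23 ± 0.24 (adjusted p = 0.582).

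Klf4 (ENSMUSG00000003032, chromosome 4, 55527143 to 55532466, minus strand), like Klf2 a restrainer of inflammation in the vessel wall, went the same way. It was at 8.57, 14.2, 11.2 and 14.8 CPM in Control, 13.7 and 14.04 CPM in Unloading, and 27.2, 26.7 and 21.1 CPM in Reloading. The Reloading range was clear of the others, while both Unloading libraries fell within the Control range. The rise from Unloading was 1.80-fold (log2 0.85 ± 0.17, adjusted p = 0.00145) and the level was 2.03-fold that of Control (1.02 ± 0.15, adjusted p = 5.26e-05).

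Klf5 (ENSMUSG00000005148, chromosome 14, 99298691 to 99315036, plus strand) rose less and from a lower level. Its libraries read 5.53, 6.55, 5.07 and 4.46 CPM in Control, 5.09 and 5.41 CPM in Unloading, and 8.95, 7.59 and 7.42 CPM in Reloading. Control 2 and Reloading 1, which held keratinocyte transcripts, were the highest of their groups. The level after reloading was 1.51 times that after unloading (log2 0.60 ± 0.17, adjusted p = 0.0109) and 1.48 times that of Control (0.56 ± 0.14, adjusted p = 0.00488). Without Unloading 1 the first of these differences no longer passed (0.55, adjusted p = 0.0683). Without both libraries that held keratinocyte transcripts it did (0.51, adjusted p = 0.0331).

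Markers of other cell types rose alongside these 3 genes. Of 10 endothelial markers 9 were higher in Reloading than in Unloading, with a median log2 fold change of 0.86, and their summed level was 236 to 275 CPM in Control, 229 to 233 CPM in Unloading and 396 to 468 CPM in Reloading. All 5 tested smooth muscle markers of 6 were higher, with a median of 1.46, and the 6 summed to 112 to 137, 97.7 to 101 and 169 to 190 CPM in the 3 groups. All 8 macrophage markers were higher, with a median of 0.94, and summed to 71.6 to 89.3, 74.4 to 74.9 and 156 to 177 CPM. The part of these cells in the rise of Klf2, Klf4 and Klf5 was not tested.

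Klf6 (ENSMUSG00000000078, chromosome 13, 5861482 to 5870394, plus strand) was the only member called between Unloading and Control. Its Control libraries were at 21.3, 22.6, 23.4 and 30.03 CPM. Unloading was at 52.2 and 46.8 CPM and Reloading at 62.9, 60.2 and 54.7 CPM, so the 3 groups did not overlap. Klf6 was 2.03-fold higher in Unloading than in Control (log2 1.02 ± 0.11, adjusted p = 0.000162) and 2.43-fold higher in Reloading than in Control (1.28 ± 0.10, adjusted p = 1.81e-07). From Unloading to Reloading the difference was 0.26 ± 0.12 and missed the threshold (adjusted p = 0.0891), and 4 of 18 alternative settings put it past the threshold. In Unloading the endothelial and smooth muscle sums lay below every Control library, and the macrophage sums lay within the Control range. Few single markers followed these sums. From Control to Unloading 2 of 10 endothelial markers were lower and 8 not called, with a median of −0.10. Of 5 tested smooth muscle markers 1, Smtn, was lower and 4 were not called, with a median of 0.09. The part of these cells in the rise of Klf6 was not tested. Of 5 fibroblast markers, Pdgfra and Dcn were higher and Col1a1 and Col3a1 lower in Unloading than in Control, and the 5 summed to 426 to 618 CPM in Control, 500.4 to 513 CPM in Unloading and 569 to 735 CPM in Reloading.

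Klf9 (ENSMUSG00000033863, chromosome 19, 23141226 to 23168134, plus strand) was the most abundant member and fell the most. It was at 273, 244, 225 and 281 CPM in Control, 326 and 291 CPM in Unloading, and 149, 159 and 169 CPM in Reloading. Both Unloading libraries were above, and all Reloading libraries below, every Control library. Klf9 was 1.94-fold lower in Reloading than in Unloading (log2 −0.96 ± 0.10, adjusted p = 4.03e-06) and 1.61-fold lower than in Control (−0.69 ± 0.08, adjusted p = 1.19e-05). Its difference between Unloading and Control, 0.27 ± 0.09, did not pass (adjusted p = 0.0729), and 5 of 18 alternatives put it past the threshold.

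Klf15 (ENSMUSG00000030087, chromosome 6, 90462576 to 90475238, plus strand) also fell. It was at 34.1, 36.3, 33.4 and 39.2 CPM in Control, 50.9 and 35.5 CPM in Unloading, and 23.05, 19.2 and 31.1 CPM in Reloading. The Reloading libraries were the lowest, Unloading 1 stood above all others, and Unloading 2 lay within Control. Klf15 was 1.75-fold lower in Reloading than in Unloading (log2 −0.81 ± 0.17, adjusted p = 0.00157) and 1.46-fold lower than in Control (−0.54 ± 0.15, adjusted p = 0.00763). Leaving out single libraries, the difference from Unloading ranged from −1.06 without Unloading 2 to −0.54 without Unloading 1 (adjusted p = 0.0443). Its log2 difference between Unloading and Control was 0.27 ± 0.16 (adjusted p = 0.309) and −0.0060 without Unloading 1.

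Muscle fibre markers moved the same way as Klf9 and Klf15 in Reloading. Of 8 such markers 6 were lower in Reloading than in Unloading, with a median log2 fold change of −0.60, and they summed to 147311 to 161990 CPM in Control, 144690 to 152872 CPM in Unloading and 103203 to 115512 CPM in Reloading. The part of the fibre share of the RNA in the fall of Klf9 and Klf15 was not tested. With libraries scaled by their totals only, the median of all genes was 0.27 between Reloading and Unloading and 0.25 between Reloading and Control, and on that scale the fall of Klf9 from Control was −0.45 (adjusted p = 0.000361) and that of Klf15, −0.30, did not pass (adjusted p = 0.0930).

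**Figure D2:**
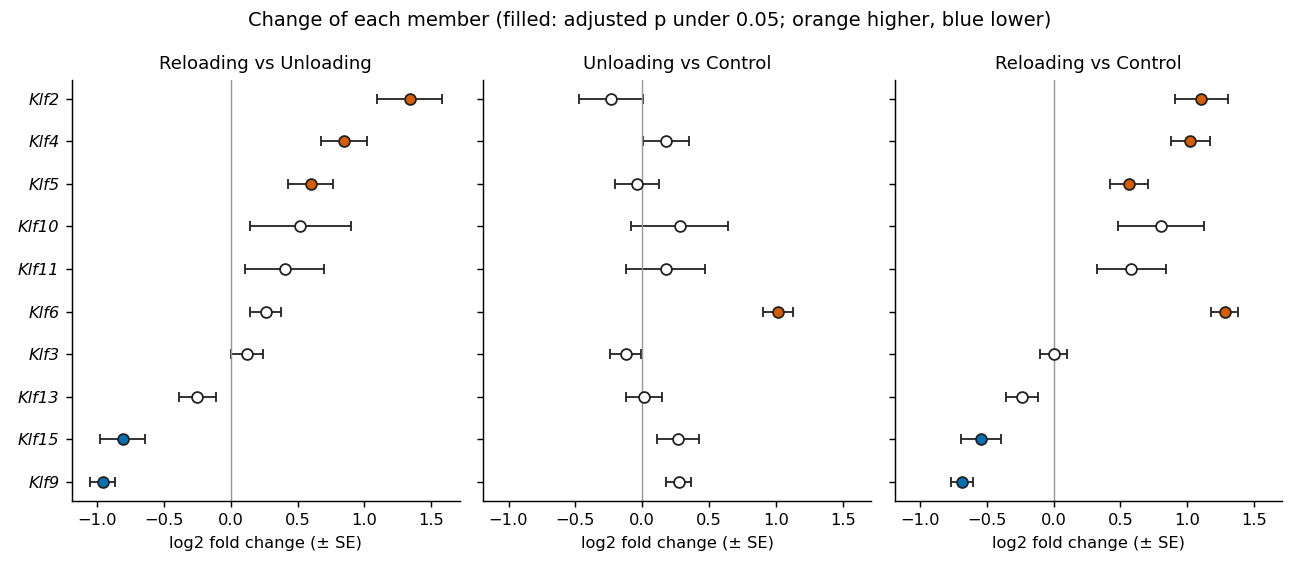
Log2 fold change (x axis) of each member in Reloading vs Unloading, Unloading vs Control and Reloading vs Control, with bars for SE. Filled points passed an adjusted p of 0.05, orange higher and blue lower. Klf2 sits farthest right at 1.34 and Klf9 farthest left at −0.96 in the first panel, and Klf6 is the one filled point of the second.

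Klf10 (ENSMUSG00000037465, chromosome 15, 38291463 to 38300706, minus strand) varied more than any other member among the Control and among the Unloading libraries. Its level was 7.22, 14.3, 24.0 and 23.3 CPM in Control, 12.6 and 29.4 CPM in Unloading, and 34.5, 37.5 and 20.1 CPM in Reloading, with a coefficient of variation of 46.3% in Control and 56.7% in Unloading. The groups overlapped, and Klf10 passed in none of the comparisons, with 0.52 ± 0.38 from Unloading to Reloading (adjusted p = 0.297) and 0.80 ± 0.32 from Control to Reloading (adjusted p = 0.0558). The former was 0.052 without Unloading 1 and 1.27 without Unloading 2, neither past the threshold, and passed under 1 of 18 alternatives, with no filter on low counts. The latter passed under 10 of 18 alternatives.

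Klf11 (ENSMUSG00000020653, chromosome 12, 24651274 to 24662789, plus strand) had the fewest read pairs of the 10, from 17 in Control 1 to 111 in Reloading 2. It was at 1.92, 3.48, 4.29 and 5.23 CPM in Control, 4.12 and 4.48 CPM in Unloading, and 4.51, 8.03 and 4.57 CPM in Reloading. Reloading 2 alone stood clear of the Control range, and the difference from Unloading, 0.40 ± 0.30, did not pass (adjusted p = 0.303). The difference of Reloading from Control was 0.58 ± 0.26 (adjusted p = 0.0823), was 0.25 without Reloading 2, and passed under 4 of 18 alternatives.

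Klf13 (ENSMUSG00000052040, chromosome 7, 63886351 to 63938915, minus strand) was at 52.4, 46.3, 43.0 and 53.2 CPM in Control, 53.3 and 45.02 CPM in Unloading, and 33.6, 39.3 and 50.6 CPM in Reloading. Reloading 1 and Reloading 2 lay below all other libraries and Reloading 3 among them, and the difference from Unloading was −0.25 ± 0.14 (adjusted p = 0.181). Without Reloading 3 it was −0.42 and passed (adjusted p = 0.0166), and the difference from Control then was −0.41 (adjusted p = 0.00863) in place of −0.24 ± 0.12 (adjusted p = 0.129).

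Klf3 (ENSMUSG00000029178, chromosome 5, 64803388 to 64832901, plus strand), a repressor that recruits CtBP proteins, stayed between 11.5 and 14.4 CPM in all 9 libraries. It was at 11.5, 14.01, 13.7 and 14.2 CPM in Control, 11.98 and 12.6 CPM in Unloading, and 13.0, 12.8 and 14.4 CPM in Reloading. The log2 differences were 0.12 ± 0.12 from Unloading to Reloading (adjusted p = 0.438) and −0.12 ± 0.11 from Control to Unloading (adjusted p = 0.540). The antisense gene Gm20033 shares 404 of the 11243 exon bases of Klf3 and held 46 read pairs over all libraries, and counting did not use strand. No other member shared exon bases with another gene.

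The CPM ranges of Reloading and Unloading did not overlap for 8 members, all but Klf10 and Klf13, and did not overlap for 60% of all genes tested. For Unloading and Control they were apart for Klf6 and Klf9 (33% of all genes), and for Reloading and Control for the 6 called members (46.9% of all genes).

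Per kilobase of exon, Klf9 led in every group, with a Control mean of 53.1 ± 5.37 RPKM (SD, n = 4). Its mean was 64.1 ± 5.14 RPKM after unloading (SD, n = 2) and 33.0 ± 2.10 RPKM after reloading (SD, n = 3). In Control the order after Klf9 was Klf15 (12.8 RPKM), Klf13 (6.47), Klf2 (6.41), Klf6 (5.54), Klf10 (4.12), Klf4 (3.99), Klf3 (1.19), Klf5 (1.04) and Klf11 (0.859), all in RPKM. Only the ranges of Klf9 and Klf15, Klf15 and Klf13, and Klf4 and Klf3 were apart between neighbours of that order. In Unloading Klf6, at 11.3 RPKM, ranked between Klf15 (15.5 RPKM) and Klf13 (6.53 RPKM), with no overlap to either. In Reloading the order was Klf9, Klf2 (14.02 RPKM), Klf6 (13.5), Klf15 (8.76), Klf4 (8.20), Klf10 (7.35), Klf13 (5.47), Klf5 (1.54), Klf11 (1.31) and Klf3 (1.19). There Klf2 and Klf6 overlapped each other, as did each pair of neighbours from Klf15 down to Klf13 and from Klf5 down to Klf3.

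The 10 members together held similar amounts of RNA in Control and Reloading, 90.2 to 107 and 89.8 to 97.3 summed RPKM, and 121 and 110 in Unloading. The make-up of that sum differed (the stacked bars of shares). Klf9 made up 55.6% ± 4.10 of the sum in the 4 Control libraries, 55.5% ± 0.956 in the Unloading pair and 35.05% ± 3.54 in the 3 Reloading libraries (mean ± SD). Klf2 made up 6.72% ± 1.55, 4.78% ± 0.589 and 14.8% ± 4.15 in the same groups, and Klf6 5.78% ± 0.481, 9.75% ± 0.131 and 14.3% ± 0.579. The ratio of Klf6 to Klf9 in RPKM was 0.0856 to 0.117 in Control, 0.175 and 0.176 in Unloading, and 0.465, 0.416 and 0.355 in Reloading, with no overlap between groups. The ratio of Klf9 to Klf15 overlapped between all 3 groups, at 3.89 to 4.65 in Control, 3.72 and 4.75 in Unloading, and 3.74, 4.81 and 3.14 in Reloading. These shares and ratios restate the levels above and were not tested.

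**Figure D3:**
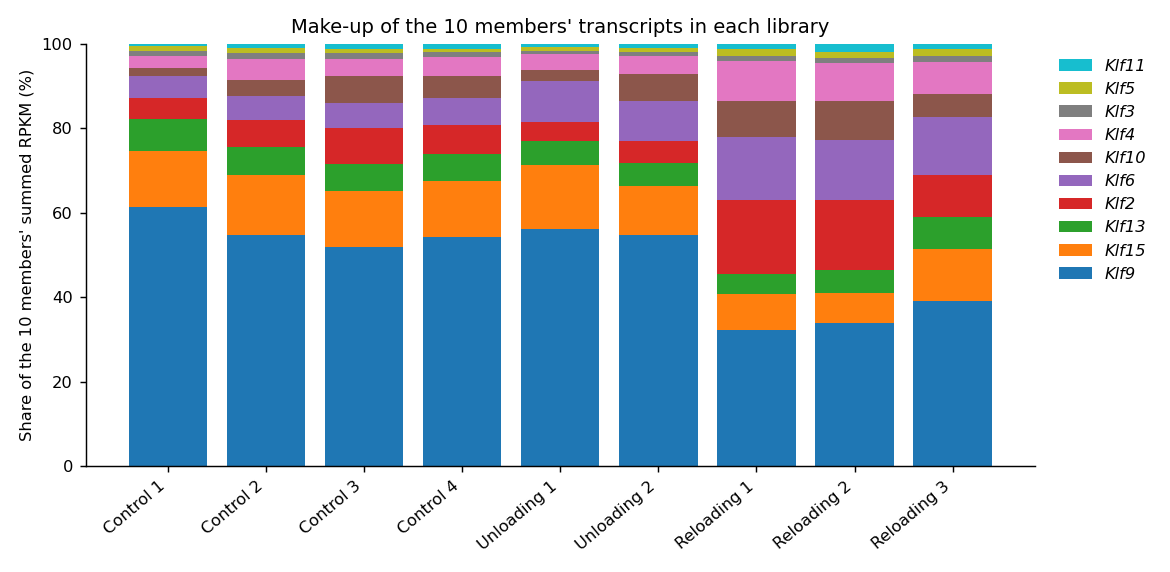
Share of each member in the summed RPKM of the 10 (y axis, percent) in each library. The blue Klf9 segment covers at least 51.9% of every Control and Unloading bar and at most 39.0% of every Reloading bar, where the Klf2, Klf6 and Klf4 segments are wider.

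Of 16 other genes of the Klf and Sp family 7 were tested and the other 9 (Klf1, Klf8, Klf14, Klf17 and Sp5 to Sp9) had at most 8 read pairs in any library. Klf16 rose and had 1.24, 1.58, 1.71 and 1.63 CPM in Control, 1.42 and 1.75 CPM in Unloading, and 3.79, 3.98 and 2.98 CPM in Reloading. Its log2 fold change from Unloading was 1.15 ± 0.24 (adjusted p = 0.00159). Klf7 was higher by 0.44 (adjusted p = 0.0394), while Sp4, at −0.90 (adjusted p = 0.000518), and Sp3, at −0.49 (adjusted p = 0.00229), were lower. Klf12, Sp1 and Sp2 lay between −0.34 and −0.06 and did not pass. From Unloading to Reloading 18.5% of all tested genes were higher and 19% lower. By edgeR 0 of the 7 passed between Unloading and Control, 3 had an unadjusted p under 0.05, and 0 passed by DESeq2. Against Control, Reloading was higher for Klf16 (1.19) and Klf7 (0.46) and lower for Klf12 (−0.57) and Sp4 (−0.54), the latter 2 not called with libraries scaled by totals only. The heat map places these 7 beneath the 10 members.

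**Figure D4:**
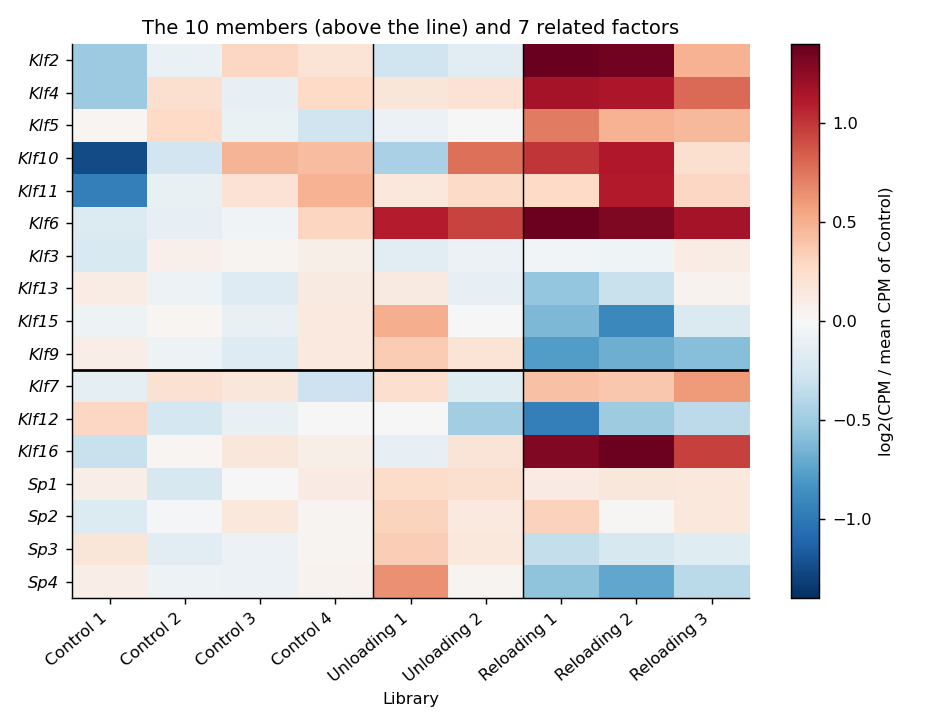
Log2 ratio of CPM to the Control mean (colour, red higher and blue lower) for the 10 members above the black line and 7 related factors below it, in each of the 9 libraries. Klf2, Klf4, Klf6 and Klf16 are red in all 3 Reloading columns, Klf9, Klf15, Klf12 and Sp4 are blue there, and Klf6 is also red in Unloading.

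Genes around the family were counted in lists (the strip plot by list). The counts are to be read beside the shares of all tested genes. From Unloading to Reloading these were 18.5% higher and 19% lower, and from Control to Unloading 4.4% and 5.5%. Between Reloading and Control they were 22.1% and 21.3%. Of 11 partners and regulators of Klf proteins, 0 were higher by edgeR (also 0 at an unadjusted p of 0.05 and 0 by DESeq2) and 5 lower from Unloading to Reloading, with a median of −0.23 that became 0.02 when libraries were scaled by totals only. The lowest was Wwp1, a ubiquitin ligase that targets Klf proteins, with 384 and 398 CPM in Unloading and 189 to 225 CPM in Reloading (log2 −0.89 ± 0.10, adjusted p = 1.47e-05). The acetyltransferase Kat2b fell by 0.83 on the log2 scale (adjusted p = 3.73e-05).

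Upstream and downstream of Klf2 and Klf4, 7 of 12 tested genes of the ERK5-MEF2 and shear-responsive endothelial list were higher in Reloading than in Unloading and 2 were lower, with a median of 0.81. The kinase gene Mapk7 (ERK5) was higher by 0.83 ± 0.19 (adjusted p = 0.00308). Nos3, the endothelial nitric oxide synthase that Klf2 activates, was at 5.09 and 5.96 CPM in Unloading and 15.5, 13.8 and 10.7 CPM in Reloading (1.25 ± 0.19, adjusted p = 0.000129), and thrombomodulin, Thbd, was higher by 0.92 (adjusted p = 2.82e-05). The largest rise of the list was that of Edn1, which encodes endothelin and which Klf2 is known to repress, at 1.54 ± 0.31 (adjusted p = 0.00117). Icam1 (1.33, adjusted p = 0.00220), Vcam1 (0.947, adjusted p = 0.00251) and S1pr1 (0.793, adjusted p = 0.00105) were also higher. Map2k5, Mef2d and F3 were not called. The list holds genes that Klf2 activates and genes that it represses, so its count and median do not stand for Klf2 activity. Mef2c and Mef2a, which muscle fibres also express, were lower, Mef2c by −0.90 ± 0.09 (adjusted p = 2.88e-06). Between Unloading and Control 0 of the 12 passed by edgeR, 1 had an unadjusted p under 0.05, and 0 passed by DESeq2. The endothelial marker sums given above rose in the same libraries, and their part in these counts was not tested.

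In the TGF-beta list, 6 of 18 genes were higher and 2 lower from Unloading to Reloading, against 18.5% and 19% of all tested genes. The median log2 fold change was 0.13. The ligand gene Tgfb1 was at 2.40 and 3.88 CPM in Unloading and 8.86, 9.18 and 6.56 CPM in Reloading, a rise of 1.35 on the log2 scale. Also higher were Ccn2 (1.23, adjusted p = 1.02e-06), Tgfb2 (0.63, adjusted p = 0.00208), Smurf1 (0.60, adjusted p = 0.000234) and Smad7 (0.51, adjusted p = 0.0133). The receptor gene Tgfbr1 fell by 0.53 on the log2 scale (adjusted p = 0.00152), and Smad4 was at −0.22 (adjusted p = 0.0470). Klf10 and Klf11, the early targets of this pathway among the members, were not called in the same comparison.

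For glucocorticoid-responsive genes the order of groups was mixed. From Control to Unloading 4 of 13 were higher (Per1, Fkbp5, Sesn1 and Errfi1) and 0 lower, also 0 at an unadjusted p of 0.05 and 0 by DESeq2, with a median of 0.48. Fkbp5, a co-chaperone that glucocorticoids induce, was at 27.1 to 71.3 CPM in Control, 94.0 and 75.6 CPM in Unloading, and 19.3, 21.3 and 34.3 CPM in Reloading, which was 0.97 ± 0.28 for Unloading against Control (adjusted p = 0.0396) and −1.75 ± 0.30 for Reloading against Unloading (adjusted p = 0.000413). From Unloading to Reloading 2 were higher, the metallothioneins Mt1 (1.84) and Mt2 (2.11). Another 3 were lower, Fkbp5, Sgk1 (−0.75) and the receptor gene Nr3c1 (−0.53). The shares of all tested genes were 18.5% higher and 19% lower. Between Reloading and Control 6 of the 13 were higher (Mt1, Mt2, Per1, Pdk4, Sesn1 and Errfi1) and 3 lower (Fkbp5, Sgk1 and Nr3c1). By group mean Fkbp5, Sgk1, Nr3c1, Klf9 and Klf15 were highest in Unloading and lowest in Reloading. Of these only Fkbp5 was called between Unloading and Control, with Sgk1 at 0.30 and Nr3c1 at 0.11. The 6 higher genes were highest in Reloading, as with Per1 at 67.7, 133 and 156 CPM in Control, Unloading and Reloading. For Klf15 only Unloading 1 lay above Control. Tsc22d3, Zbtb16, Ddit4 and Foxo1 of the list were not called in any comparison.

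The list of amino acid, glucose and lipid genes linked to Klf15 was lower in Reloading, with 8 of 13 genes called lower and 1 higher against Unloading (median −0.48), and 10 lower and 0 higher against Control (median −0.68, with 0 higher also at an unadjusted p of 0.05 and by DESeq2). Gpt2, an alanine transaminase, was at 334 to 418 CPM in Control, 722 and 567 CPM in Unloading, and 262 to 297 CPM in Reloading (−1.22 ± 0.11 against Unloading, adjusted p = 1.62e-06). It was the only gene of the list called higher in Unloading than in Control (0.78 ± 0.10, adjusted p = 0.000595), where 6 were lower, or 3 without Control 2 and Reloading 1. Bckdha, a subunit of the branched-chain keto acid dehydrogenase, was at 45.0 and 48.0 CPM in Unloading and 24.8, 21.6 and 22.9 CPM in Reloading (−1.01 ± 0.09, adjusted p = 1.03e-06). Bcat2, the first enzyme of that route, was lower in both steps, by −0.54 from Control to Unloading and again by −0.54 to Reloading. The exception in the other direction was Fabp3, a fatty acid carrier, at 0.50 from Unloading to Reloading (adjusted p = 0.0216). Muscle fibre markers fell in the same libraries, with the values given above, and their part was not tested.

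Of 15 tested circadian clock genes 1 was higher (Arntl, 0.53, adjusted p = 0.0286) and 9 were lower in Reloading than in Unloading, with a median of −0.33. Without Control 2 and Reloading 1 Arntl did not pass and 8 were lower. From Control to Unloading 5 were higher and 1, Bhlhe41, was lower (−0.42). Among the higher genes was Per1, which the glucocorticoid list also counts. The largest fall was that of Ciart (−0.68 ± 0.17, adjusted p = 0.00655), which had been higher in Unloading than in Control (0.98 ± 0.17, adjusted p = 0.00317). With libraries scaled by totals only, 4 were higher and 2 lower, with a median of −0.08. The time of day of sampling was not given for each library in the sources, so it cannot be told apart from the groups.

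**Figure D5:**
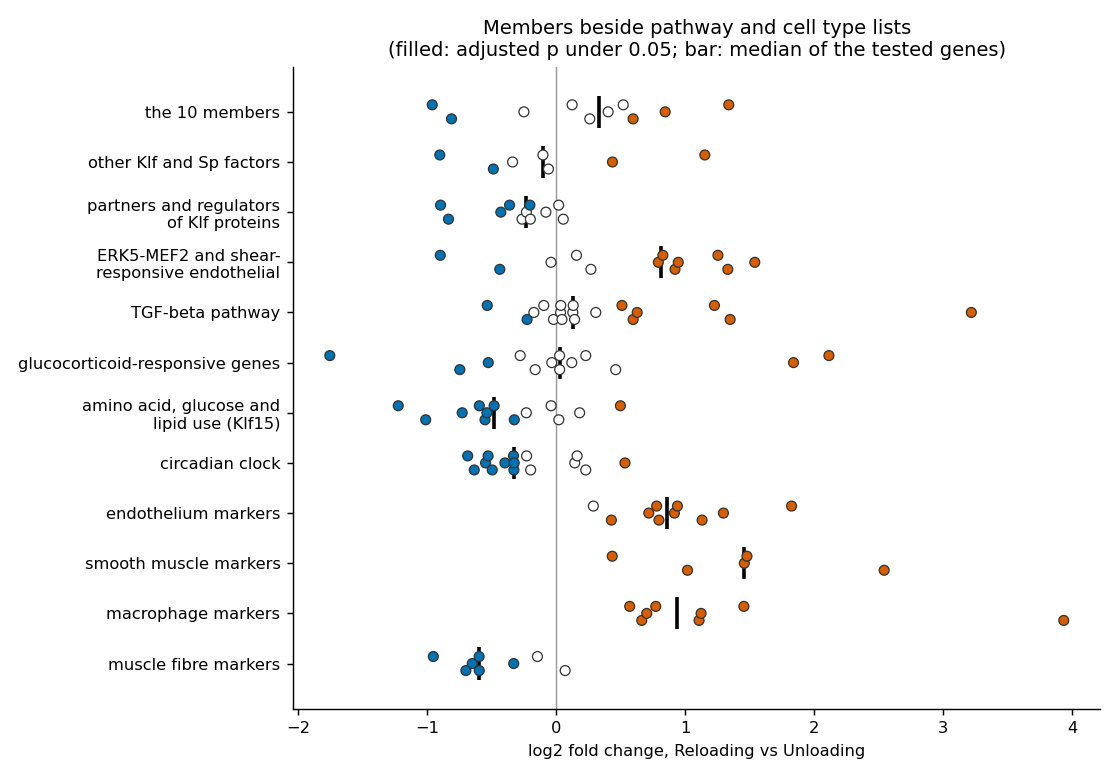
Log2 fold change of Reloading vs Unloading (x axis) for each tested gene of the members, of the pathway lists and of 4 marker lists (rows). Points are genes, filled where the adjusted p was under 0.05, and bars are medians. The shear-responsive list (median 0.81) and the endothelial (0.86), macrophage (0.94) and smooth muscle (1.46) markers lie to the right. The Klf15-linked list (−0.48) and the muscle fibre markers (−0.60) lie to the left.

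The genes most like Klf2 over the 9 libraries, among 9867 other genes with a symbol and a mean log2 CPM of at least 2, were Myf6 (Pearson r = 0.971), Cdc42se1 (0.969) and Septin9 (0.969). Myf6, a muscle regulatory factor of the fibres, was at 72.9 to 82.8 CPM in Control, 75.9 and 77.3 CPM in Unloading and 111, 118 and 100.002 CPM in Reloading. Those most like Klf9 were Trpm7 (0.996), Araf (0.995) and Trdn (0.995), with Trdn, the triadin gene of the fibre calcium store, at 1830 to 2293 CPM in Control, 2683 and 2434 CPM in Unloading and 905 to 1162 CPM in Reloading. These r values describe 9 libraries in 3 groups that share their depth and scaling.

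Leaving out Control 2 and Reloading 1, the libraries with keratinocyte transcripts, changed no call of a member. From Unloading to Reloading the values then were 1.19 for Klf2, 0.78 for Klf4, 0.51 for Klf5, −0.92 for Klf9 and −0.77 for Klf15 on the log2 scale. From Control to Reloading they were 0.92 for Klf2, 1.03 for Klf4, 0.58 for Klf5, 1.20 for Klf6, −0.67 for Klf9 and −0.50 for Klf15, and Klf6 was at 0.98 from Control to Unloading.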

How the data were processed

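Polyadenylated RNA of 9 gastrocnemius libraries was sequenced after Trizol extraction and Illumina TruSeq preparation. The labels give male mice and paired-end libraries, while the study's methods describe female mice and single reads. The submitters' processing notes name STAR 2.7.3a, GRCm38.p6 and featureCounts 2.0.3, and the table header gives unstranded counting of read pairs against Ensembl release 102. The count table that the authors deposited holds unnormalized read pair counts and the summed exon length of 55487 genes. The authors also deposited a DESeq2 table per comparison, whose mean signal, shrunken log2 fold changes, SE, p-values and adjusted p-values were not used, and which gave gene symbols only.

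The differential expression analysis used edgeR 4.0.16 under R 4.3.3. Of 34376 genes with a count, 14851 passed filterByExpr (minimum count 10, minimum total 15). One quasi-likelihood model with TMM factors and a group term covered the 9 libraries (common biological coefficient of variation 0.0927). Tests were two-sided, with Benjamini-Hochberg adjusted p-values per comparison and a threshold of 0.05. SE came from the F statistic, log2 CPM used a prior count of 2, and RPKM is TMM-scaled CPM per kilobase of summed exon length. Fits were tested on simulated counts in which a small set of genes was changed in both directions. Changes as broad as those between these groups were not simulated. Within groups the libraries correlated at 0.989 to 0.993 in log2 CPM, and depths are in the report. Promoters came from a RefSeq table on GRCm38.p6.

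The members and gene lists were chosen with earlier results of these data known. All 10 members are named, with related factors past the threshold, the genes of each list with the largest called change each way, and the 3 genes most correlated with Klf2 and with Klf9. Kat2b, Mapk7, Nos3, Thbd, Mef2a, Tgfb1, Mt1, Sgk1, Nr3c1, Sesn1, Errfi1, Bckdha and Bcat2 were added after their values were seen, as were examples of markers. So were Icam1, Vcam1, S1pr1, Map2k5, Mef2d, F3 and Pdk4. Further such additions were Ccn2, Tgfb2, Smurf1, Smad7, Smad4, Tsc22d3, Zbtb16, Ddit4 and Foxo1. One gene that this rule names is not reported here. Alternatives covered DESeq2 1.42.0, other scalings, no filter, only the groups compared, a robust fit, replicate blocks and leaving out libraries.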

Additional observations from a re-analysis of the deposited data

How the results depend on the processing

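Each of the 30 member results (10 members, 3 comparisons) was recomputed under 18 alternatives, 540 values in all. Direction and side of the threshold stayed the same in 486, a call was gained in 31 and lost in 2, and the sign changed in 21, all of differences that were not called. The calls lost were Klf5 from Unloading to Reloading without Unloading 1 (0.55, adjusted p = 0.0683) and Klf15 from Control to Reloading with library totals only (−0.30, adjusted p = 0.0930). Where a group was left with 1 library, that library was assumed to vary like the other groups.

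With library totals only, 5 members in place of 3 were higher from Unloading to Reloading and 1 in place of 2 was lower from Control to Reloading, and Klf13 was at 0.0032 there. This scaling raised the share of higher genes among all calls from 49.3% to 82.8% for Reloading against Unloading and from 50.9% to 80.2% for Reloading against Control. On this scale 11 TGF-beta genes in place of 6 and 4 glucocorticoid-responsive genes in place of 2 were higher, and 2 Klf partners in place of 5 were lower, from Unloading to Reloading. From Control to Unloading, 2 members in place of 1 were higher with DESeq2 and with the robust fit, and 3 with no filter on low counts. Leaving out single libraries gave 1 to 2, with the second, Klf9, called without Control 4. The count of all genes called from Control to Unloading, 1470, was 121 without Unloading 1 and 949 without Control 3. The cause was not tested.

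Replicate numbers were not taken to pair the libraries. The deviations of same-numbered Control and Reloading libraries correlated at −0.16, −0.04 and −0.12 by the titles. By the numbers in the descriptions the Control and Reloading pairs were at 0.21, 0.079 and 0.20. Each of these Control and Reloading libraries correlated best with its own number in the other group. No source states this hint from the data as a shared batch, and the pair at 0.079 was too weak to count. The pair at 0.21 was Control 2 and Reloading 1, the libraries with keratinocyte transcripts. Control and Unloading pairs, the same by both numberings, were at 0.14 and 0.19. Unloading and Reloading were at 0.11, so all 6 pairs were positive. The deviations of the 2 Unloading libraries mirror each other (r = −1), so the pairs with Unloading are not independent. The replicate block by description numbers put 2 members higher from Control to Unloading (Klf6 and Klf9) and turned Klf10 (−0.092) and Klf11 (−0.16) from Unloading to Reloading and Klf3 (−0.044) from Control to Reloading. The block by title numbers added calls for Klf6 from Unloading to Reloading and for Klf10 and Klf11 from Control to Reloading.

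Other sign changes were Klf5 from Control to Unloading with no filter (0.00087) and without Control 2 and Reloading 1 (0.075), Klf13 there without those libraries (−0.011), and Klf3 from Control to Reloading with DESeq2 (−0.014) and its size factors in edgeR (−0.013). Leaving out single libraries, the differences from Control to Unloading ranged from −0.12 to 0.074 for Klf5, −0.48 to 0.75 for Klf10, −0.0055 to 0.37 for Klf11, −0.11 to 0.13 for Klf13 and −0.0060 to 0.51 for Klf15, and that of Klf3 from Control to Reloading from −0.056 to 0.029. Klf11, with 17 to 111 read pairs, had the least depth.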
